A study of Mus musculus with 16 samples.

Results

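The acyl-CoA thioesterase family was followed in mouse liver as the 10 rows of the gene table whose symbol was Acot1, Acot2, Acot3, Acot4, Acot7, Acot8, Acot9, Acot11, Acot12 or Acot13, out of 22612 genes in all. RNA sequencing covered 16 libraries, 4 in each of 4 diet groups. All mice were male C57BL/6, bought at 7 weeks of age and given 1 week to settle in, were on their diets for 16 weeks and were fasted overnight before the liver was taken. Ketogenic-alternating mice (iKD in the design text) ate the high-fat diet (58% of energy from fat) and a ketogenic diet (90.5%) in turns of 2 weeks. Chow-alternating mice (iCD) ate the high-fat diet and chow (11% of energy from fat) in turns of 2 weeks. High-fat mice (HFD) ate the high-fat diet throughout, and chow mice (CD) ate chow throughout. The design text gives 6 mice a group and 4 samples a group for sequencing. Which diet came last before collection in the alternating groups is not given, nor whether each library was a separate animal, so p-values measure the spread between these libraries, which may be technical.

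Acyl-CoA thioesterases cut the bond between coenzyme A and a fatty acyl chain and release the free acid and free coenzyme A. They work against the acyl-CoA synthetases, which make that bond at the cost of ATP, and so bear on how much acyl-CoA is open to oxidation or to lipid synthesis. The members sit in different compartments of the hepatocyte. In mouse, Acot1 is cytosolic and Acot2 mitochondrial, both acting on long-chain acyl-CoA, and Acot3, Acot4 and Acot8 are peroxisomal. Acot9 and Acot13 are mostly mitochondrial, whereas Acot7, Acot11 and Acot12 are mostly cytosolic, and Acot12 acts on acetyl-CoA. Genes of the Acot1 group are textbook targets of the fatty acid receptor PPAR alpha in mouse liver, which binds with RXR to direct repeats of a short DNA half-site.

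Acot1, Acot2, Acot3 and Acot4 lie in a row on the plus strand of chromosome 12 with Acot5 and Acot6, between bases 83987861 and 84111349 (GRCm38, GENCODE vM21), a stretch of 123489 bases with 6 thioesterase genes. The remaining members lie apart, with Acot7 and Acot11 on chromosome 4, Acot8 on chromosome 2, Acot9 on the X chromosome, and Acot12 and Acot13 on chromosome 13. Acot1 and Acot2 were the closest pair among the members of the chromosome 12 group. Of 1236 aligned coding bases, 1181 were the same (95.6%), with an unbroken run of 273 identical bases. Acot1 shared 84.0% of aligned coding bases with Acot3 and 77.3% with Acot4. The stretch of 60 coding bases in which Acot1 and Acot2 differed most is given here as an example. Reads that cover any differing base can tell Acot1 and Acot2 apart. The 13 differing bases are in capitals (Acot1 coding bases 823 to 882, Acot2 coding bases 946 to 1005, GENCODE vM21 transcripts).
Acot1: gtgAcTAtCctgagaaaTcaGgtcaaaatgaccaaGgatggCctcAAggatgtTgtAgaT
Acot2: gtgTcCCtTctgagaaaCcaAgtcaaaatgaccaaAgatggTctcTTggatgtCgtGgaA
Over the main transcript of each gene, 12.4% of all 150-base windows of Acot1, 10.2% of those of Acot2 and 11.3% of those of Acot3 were found letter for letter in a transcript of another gene. None of the windows of the other 7 members was. Windows of Acot2 recurred only in Acot1, and those of Acot3 in Acot1, Acot5, Acot6 and Gm49366. Reads from such windows are shared out between genes by estimation. The levels of Acot1 and Acot2, and of Acot1 and Acot3, are thus uncertain against each other. The sum of Acot1 to Acot6, which leaves out Gm49366, is given with each comparison.

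The liver label was checked against marker genes. The 10 hepatocyte markers summed to between 88168 and 125068 TPM in the 16 libraries, and the 6 kidney and muscle markers all averaged below 0.1 TPM. TPM, the unit of the deposited values, is a share of all transcripts, adjusted for transcript length and scaled to 1 sum for all libraries, so levels of different genes can be set side by side, but sequencing depth is unknown. Between 10575 and 11695 genes per library reached 1 TPM. The 20 highest genes held 27.1% to 38.8% of a library's TPM, with 4 libraries above 33% (high-fat replicates 1 and 2, chow replicates 2 and 3). In bulk liver, fewer cells of a type and less RNA per cell cannot be told apart.

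The family total was carried by a few members. The 10 genes summed to 410 ± 68.6 TPM in ketogenic-alternating, 339 ± 34.2 TPM in chow-alternating, 334 ± 32.2 TPM in high-fat and 419 ± 41.4 TPM in chow livers (SD, n = 4 each). Over all 16 libraries the TPM levels ran in the order Acot13 (106 ± 16.8), Acot12 (74.6 ± 17.2), Acot1 (71.4 ± 31.1), Acot3 (31.5 ± 13.3), Acot4 (30.2 ± 8.02), Acot8 (25.5 ± 5.71), Acot7 (17.6 ± 1.84), Acot2 (14.4 ± 5.99), Acot9 (3.11 ± 1.77) and Acot11 (1.20 ± 0.561) (SD over libraries). Acot12 and Acot1, Acot3 and Acot4, and likewise Acot4 and Acot8, differed by less than the SD of either, so their order is not set. Acot11 reached 1 TPM in 9 of 16 libraries and Acot9 in 15, whereas the other 8 members did so in all 16.

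**Figure D1:**
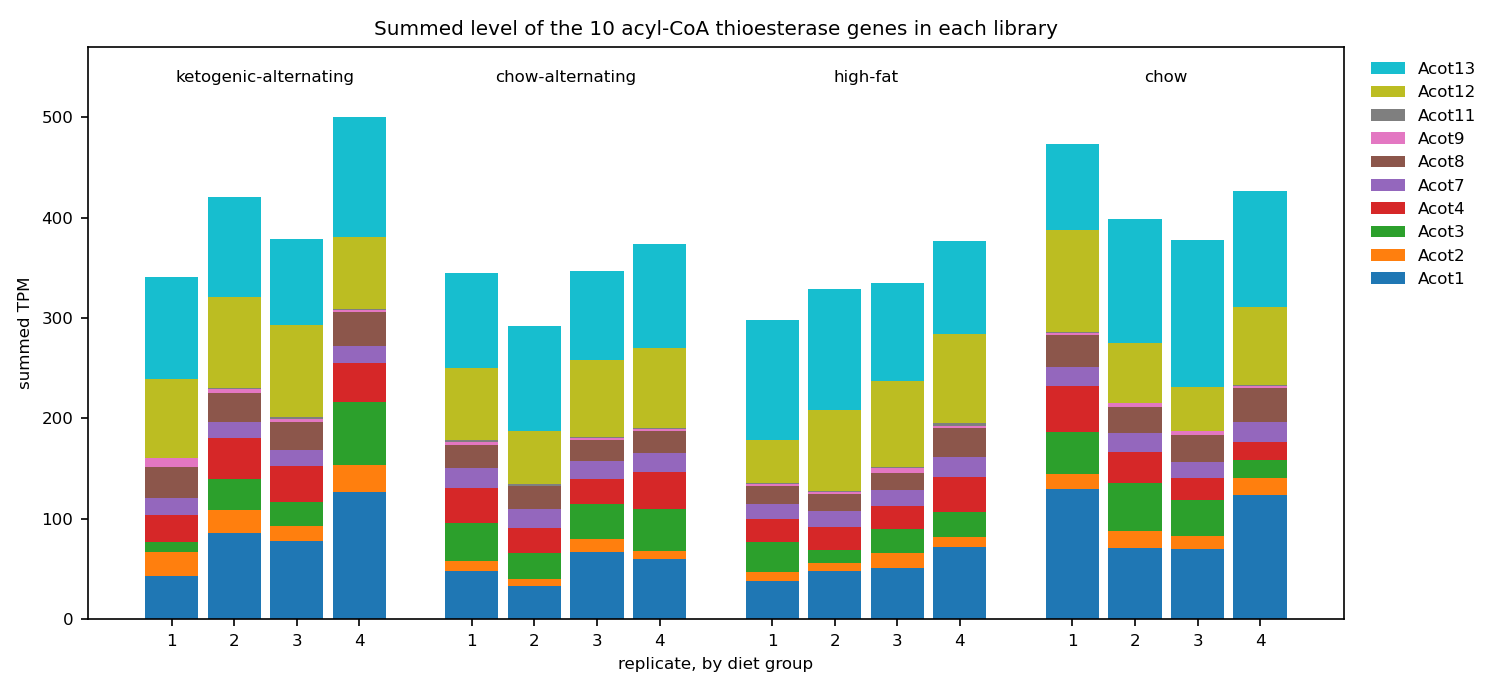
Summed TPM of the 10 acyl-CoA thioesterase genes in each of the 16 libraries, stacked by gene and grouped by diet (replicate number under each bar). Acot13, Acot12 and Acot1 fill most of every bar, and the group means are 410, 339, 334 and 419 TPM from left to right.

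By compartment, the cytosolic members Acot1, Acot7, Acot11 and Acot12 held 45.0 ± 3.78% of the family total in ketogenic-alternating, 41.8 ± 4.45% in chow-alternating, 42.7 ± 7.37% in high-fat and 44.2 ± 9.73% in chow livers (SD, n = 4 each). The mitochondrial members Acot2, Acot9 and Acot13 held 31.7 ± 5.14%, 32.4 ± 4.10%, 36.7 ± 7.02% and 33.1 ± 8.90% in the same order of groups. The peroxisomal members Acot3, Acot4 and Acot8 held 23.3 ± 2.96%, 25.8 ± 1.73%, 20.6 ± 3.78% and 22.7 ± 4.42%. These shares were not tested.

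Among the mitochondrial members, Acot2 had 23.2, 23.3, 14.9 and 27.4 TPM in ketogenic-alternating livers, 10.2, 7.06, 12.1 and 8.09 TPM in chow-alternating livers, 9.29, 8.36, 15.0 and 10.2 TPM in high-fat livers and 15.4, 17.2, 12.6 and 16.4 TPM in chow livers. All ketogenic-alternating libraries stood above all chow-alternating ones. The ketogenic-alternating and high-fat groups overlapped only through replicate 3 of each (14.9 and 15.0 TPM). Acot9, a thioesterase of the mitochondrial matrix, had 8.63, 4.38, 3.76 and 2.20 TPM in ketogenic-alternating livers, 2.91, 0.814, 2.06 and 2.12 TPM in chow-alternating livers, 2.17, 2.12, 4.74 and 2.29 TPM in high-fat livers and 2.33, 3.51, 3.26 and 2.52 TPM in chow livers. Its values overlapped between all groups, and its spread was widest in the ketogenic-alternating group (SD 58.0% of the mean, against 19.5% to 45.1% in the other groups). Acot13, known also as Them2 and a partner of the phosphatidylcholine transfer protein, had 102, 99.3, 85.8 and 120 TPM in ketogenic-alternating livers, 94.9, 105, 88.0 and 103 TPM in chow-alternating livers, 120, 121, 96.9 and 92.1 TPM in high-fat livers and 85.5, 124, 146 and 115 TPM in chow livers. Both the lowest and the highest of its 16 values were chow libraries, so the groups overlapped throughout.

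Among the peroxisomal members, Acot8 had 30.3, 28.7, 27.0 and 33.4 TPM in ketogenic-alternating livers, 22.4, 22.7, 21.0 and 21.5 TPM in chow-alternating livers, 18.3, 16.5, 16.8 and 28.9 TPM in high-fat livers and 32.1, 26.4, 27.8 and 33.7 TPM in chow livers. The chow-alternating libraries lay in a narrow band below every ketogenic-alternating and every chow library, and high-fat replicate 4 stood far above the other 3 of its group. Acot3, which takes medium- and long-chain acyl-CoA, had 10.7, 30.9, 23.5 and 62.2 TPM in ketogenic-alternating livers, a wider spread (SD 68.8% of the mean) than in chow-alternating (18.5%), high-fat (32.4%) and chow livers (34.8%). Acot4, which acts on succinyl-CoA and other dicarboxylic acyl-CoA, ranged from 26.5 to 40.7 TPM in ketogenic-alternating, 24.8 to 36.7 TPM in chow-alternating, 22.7 to 34.3 TPM in high-fat and 17.9 to 45.3 TPM in chow livers. The chow range of Acot4 held all 12 other values.

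Among the cytosolic members, Acot1 had 43.4, 85.4, 78.3 and 126 TPM in ketogenic-alternating livers, 47.5, 32.6, 67.3 and 59.6 TPM in chow-alternating livers, 37.7, 47.9, 50.6 and 71.7 TPM in high-fat livers and 129, 70.6, 70.1 and 124 TPM in chow livers. Every chow-alternating library stood below every chow library, and 3 of 4 high-fat libraries did. Acot12 had 77.9, 90.3, 92.1 and 72.2 TPM in ketogenic-alternating livers, 71.8, 53.3, 77.0 and 80.3 TPM in chow-alternating livers, 41.9, 80.5, 86.2 and 88.6 TPM in high-fat livers and 101, 59.1, 43.4 and 78.0 TPM in chow livers. Its lowest values were high-fat replicate 1 and chow replicate 3. Acot7, the main brain thioesterase, was the steadiest member, between 14.6 and 20.8 TPM over all 16 libraries. Acot11, known also as Them1 and induced by cold in brown fat, stayed between 0.591 and 2.67 TPM.

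**Figure D2:**
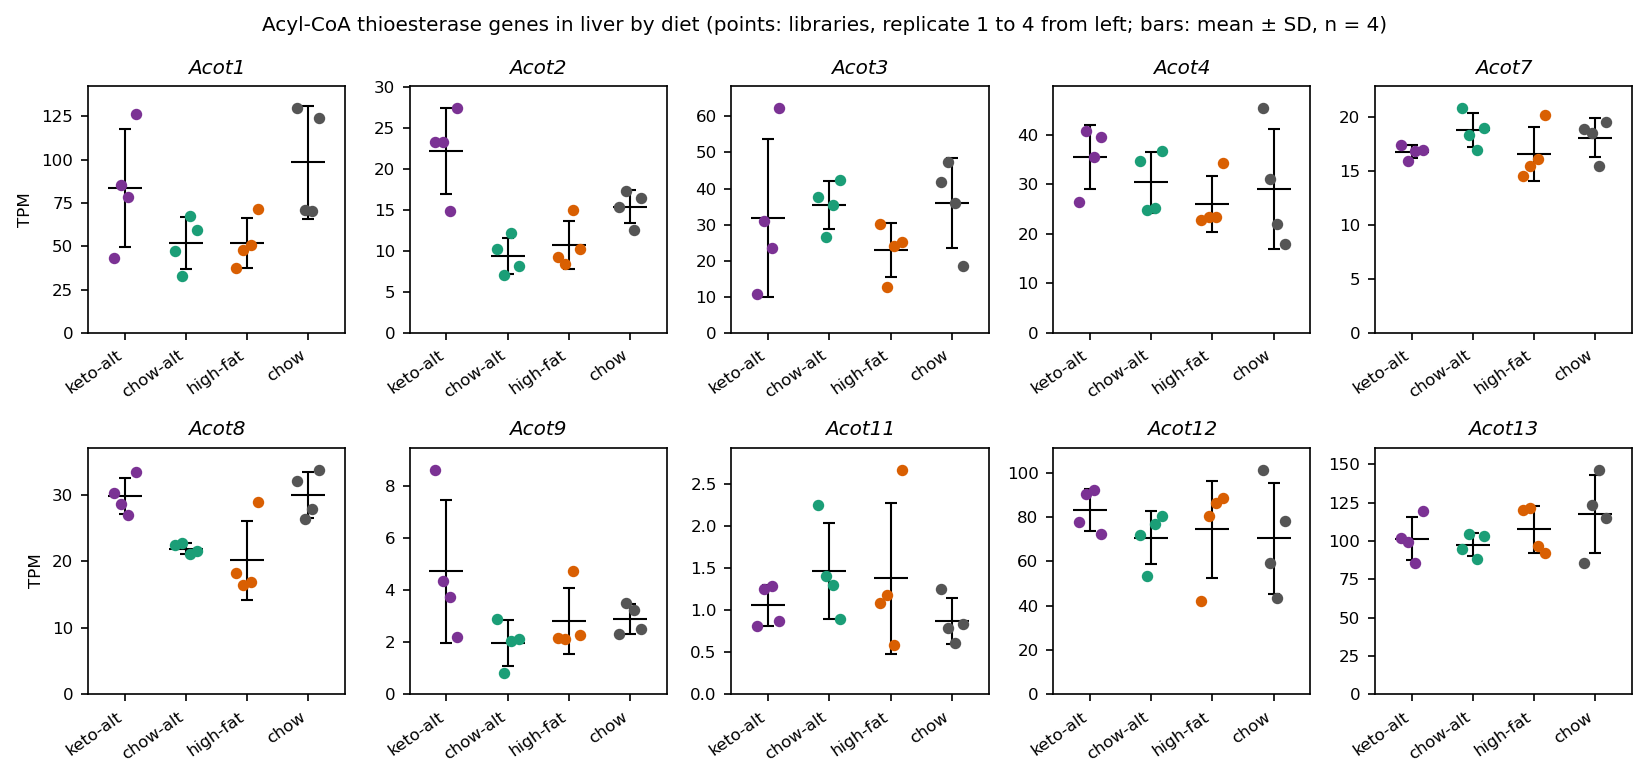
TPM of each of the 10 members by diet group, with 1 point per library (replicates 1 to 4 from left within a group) and the mean ± SD as bars (n = 4). Acot2 and Acot8 are the genes for which all ketogenic-alternating points lie above all chow-alternating points.

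Acot2 and Acot8 were called higher in ketogenic-alternating than in chow-alternating livers. This comparison asks how turns of a ketogenic diet differ from turns of chow on the same high-fat background. Acot2 averaged 22.2 ± 5.25 TPM in ketogenic-alternating and 9.37 ± 2.25 TPM in chow-alternating livers (SD, n = 4 each), a log2 fold change of 1.16 (SE 0.198, limma adjusted p = 0.0117) on the log2(TPM + 1) scale. Acot8 averaged 29.8 ± 2.72 TPM and 21.9 ± 0.781 TPM in the same order, a log2 fold change of 0.43 (SE 0.0935, limma adjusted p = 0.0311). Both were higher in 4 of 4 ketogenic-alternating libraries than in any chow-alternating library. The mean of Acot8 in chow livers was 30.0 TPM, near its ketogenic-alternating mean. Acot2 alone also passed the study's limit of a 2-fold change, as 0.782% of all genes did. Calls were made at an adjusted p below 0.05 over all genes tested (Benjamini-Hochberg). Of the 11002 genes tested, 5.04% were called in either direction and 4.31% were called as higher. Of the members, 2 of 10 were called, both higher, and the same 2 of 10 had all 4 ketogenic-alternating values above, which 14.7% of all genes did. At an unadjusted p below 0.05 stood 3 of 10 members, all higher, against 29% of all genes in either direction and 25.7% as higher.

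The other 8 members gave no call between the alternating diets. Acot9 averaged 4.74 ± 2.75 TPM in ketogenic-alternating and 1.98 ± 0.867 TPM in chow-alternating livers (log2 fold change 0.89, SE 0.323, limma adjusted p = 0.114), and it passed without ketogenic-alternating replicate 4 (1.13, adjusted p = 0.0298, with 0.0298 to 0.260 over all alternatives). Acot1 averaged 83.3 ± 34.0 TPM and 51.7 ± 15.1 TPM in the same order (log2 fold change 0.63, SE 0.299, limma adjusted p = 0.187). For Acot3, Acot4, Acot7, Acot11, Acot12 and Acot13 the log2 fold changes lay between -0.39 and 0.24, with 95% intervals that held 0. The interval of Acot13 was -0.19 to 0.29 and that of Acot3 was -1.27 to 0.50. The median log2 fold change of the members was 0.23, beside 0.19 for all genes tested.

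**Figure D3:**
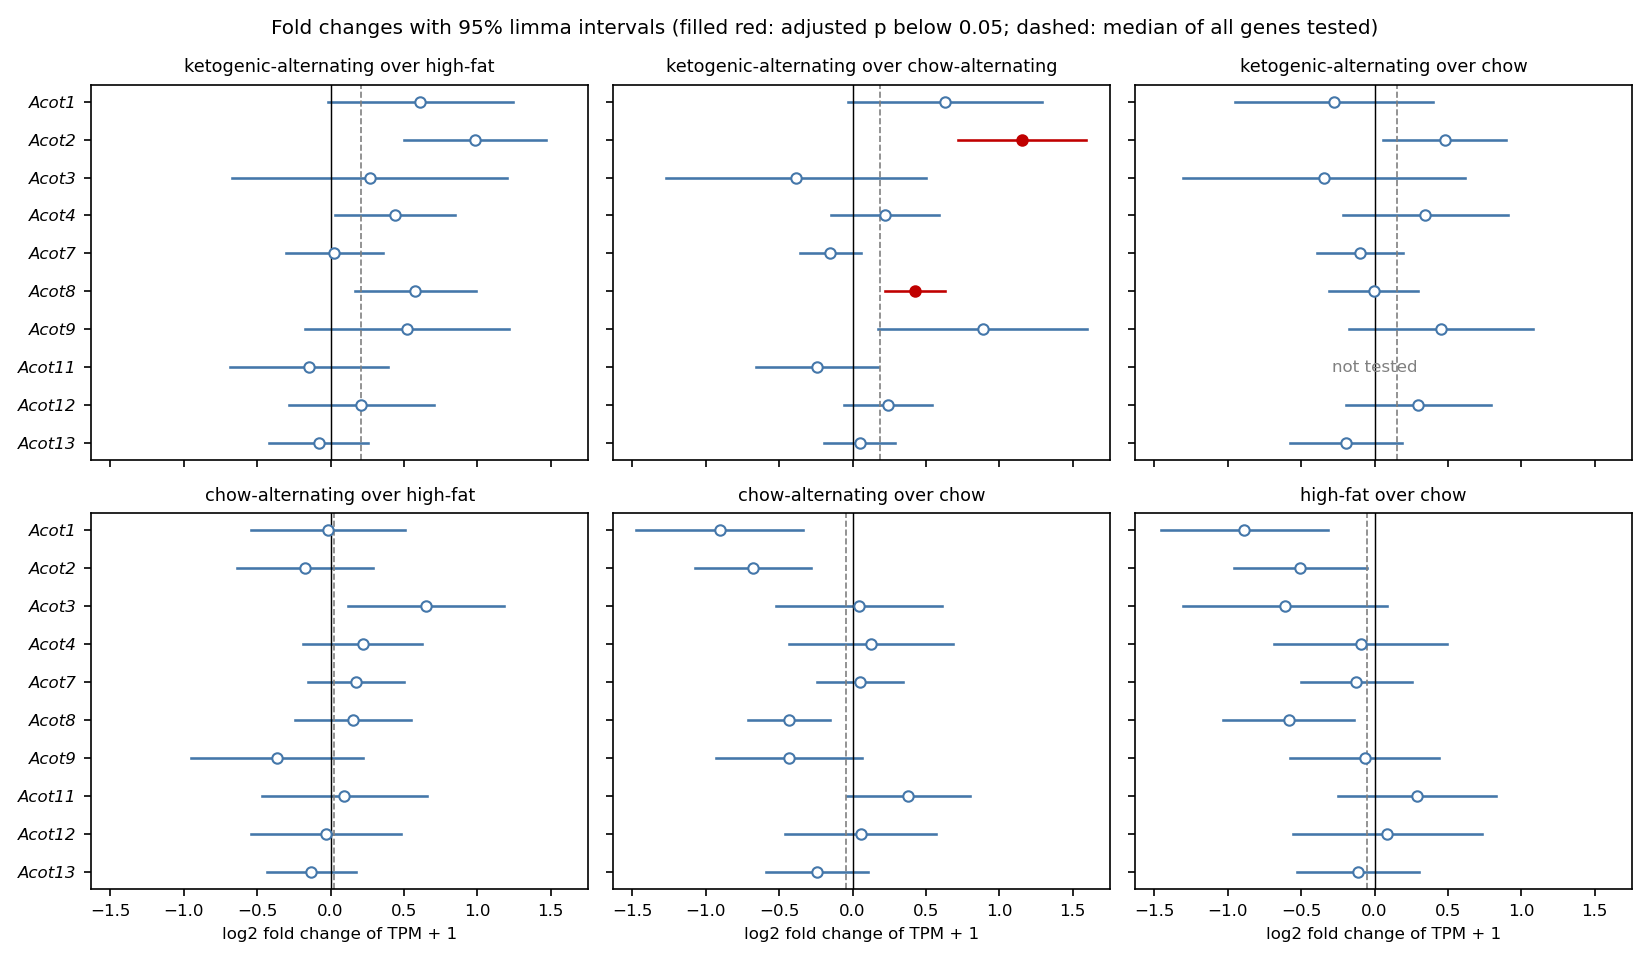
Log2 fold change of each member in the 6 comparisons (points, with 95% limma intervals as lines), the group named first over the other, with the median of all genes tested as a dashed line. Acot2 (1.16) and Acot8 (0.43) in ketogenic-alternating over chow-alternating livers are the filled points, and Acot11 was not tested against chow in the ketogenic-alternating comparison.

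The whole table leaned the same way. The 554 calls divided into 474 higher and 80 lower in ketogenic-alternating livers, into 240 higher and 89 lower once rescaled without the 20 highest and the mitochondrial genes, and into 133 higher and 174 lower after rescaling by median ratios, which took 0.17 off the median log2 fold change. Relative to that shift Acot2 kept a log2 fold change of 0.98 (adjusted p = 0.0381), and Acot8 stood at 0.24 (adjusted p = 0.242). Acot13, at 0.05 before, stood at -0.14. Acot2 passed in every fit that left out 1 library (log2 fold change 1.04 to 1.33, adjusted p 0.00789 to 0.0456). Acot8 passed in 2 of these 8 fits, with log2 fold changes of 0.37 to 0.47 and adjusted p up to 0.0925. It was lost without ketogenic-alternating replicate 1 or 2, and without any of the chow-alternating replicates. With replicate number as a block, neither Acot2 (limma adjusted p = 0.0529) nor Acot8 passed. The Acot1 to Acot6 sum had a log2 fold change of 0.41 (adjusted p = 0.269), which gave no call.

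Marker genes of other liver cells differed between the same libraries. Sinusoidal endothelial markers summed to 102 to 153 TPM in ketogenic-alternating and 60.9 to 86.1 TPM in chow-alternating livers, with 1 of 6 called higher. Resident macrophage markers summed to 79.6 to 292 TPM and 86.9 to 131 TPM, and stellate cell markers to 201 to 379 TPM and 141 to 220 TPM, with 0 of 6 called in each list. The 6 adipocyte markers summed to 13.1 to 42.3 TPM in ketogenic-alternating and 0 to 1.33 TPM in chow-alternating livers, nearly all of it Cfd. Lep and Ucp1 were listed at 0 in all libraries. Cfd was the 1 marker tested and was called. Its level was at least 12.8 TPM in ketogenic-alternating livers, and only replicate 1 of the chow-alternating group reached 1 TPM. Cfd thus entered the test through the group where it was high, and its call is not read as a result. Cholangiocyte markers summed to 29.7 to 176 TPM and 29.3 to 113 TPM, and T and NK cell markers to 2.00 to 4.78 TPM and 3.10 to 4.17 TPM, with no call among those tested. Hepatocyte markers summed to 90931 to 101016 TPM and 109303 to 117544 TPM in the same order, with 0 of 10 called. Ketogenic-alternating replicate 1, which had the highest macrophage, stellate and cholangiocyte sums of the 16 libraries (292, 379 and 176 TPM), also had the highest Acot9 and the lowest Acot1 and Acot3 of its group. The part of these cells in the results was not tested.

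Printed here are the promoters of the 2 members called between the alternating diets, and that of Acot12, which held the closest match among the members. They were compared with the PPAR alpha and RXR repeat, AGGTCANAGGTCA. It was searched on both strands of the 300 bases from 250 before to 50 after the transcript start (RefSeq, GRCm38.p6). The capitals mark the closest match where it had at most 3 mismatches in 12 fixed letters. The repeat holds the half-site AGGTCA at both ends, so the searches overlap.
Acot2, chr12:83987611-83987910, plus strand: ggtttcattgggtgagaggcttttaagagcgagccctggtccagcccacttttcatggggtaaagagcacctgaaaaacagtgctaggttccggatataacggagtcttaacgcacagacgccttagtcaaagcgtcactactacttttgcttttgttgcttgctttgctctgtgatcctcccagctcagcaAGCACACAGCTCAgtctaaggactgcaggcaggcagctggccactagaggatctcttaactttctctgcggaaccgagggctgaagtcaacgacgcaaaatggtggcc
Acot8, chr2:164804832-164805131, minus strand: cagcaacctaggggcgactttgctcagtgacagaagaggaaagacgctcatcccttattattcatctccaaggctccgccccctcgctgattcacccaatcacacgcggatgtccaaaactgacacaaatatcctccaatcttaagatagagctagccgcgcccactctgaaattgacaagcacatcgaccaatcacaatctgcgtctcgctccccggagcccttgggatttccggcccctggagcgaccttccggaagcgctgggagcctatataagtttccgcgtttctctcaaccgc
Acot12, chr13:91741271-91741570, plus strand: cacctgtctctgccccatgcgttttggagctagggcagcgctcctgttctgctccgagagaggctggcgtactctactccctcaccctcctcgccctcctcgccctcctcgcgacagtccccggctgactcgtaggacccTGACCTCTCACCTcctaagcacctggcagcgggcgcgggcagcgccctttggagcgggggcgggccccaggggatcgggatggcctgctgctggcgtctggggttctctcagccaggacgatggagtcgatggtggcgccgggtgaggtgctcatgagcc
Promoters were found for 9 of the 10 members. That of Acot7, chr4:152185358-152185657, lies downstream of the start of its main transcript at base 152178134. The promoter of that main transcript was not searched. The closest match was that of Acot12, at 1 mismatch on the minus strand, a level reached by 0.554% of the 32851 promoters in the table. Acot4 followed at 2 mismatches (3.86% of promoters). Acot2 and Acot3 stood at 3 (24.6%), Acot1, Acot7 and Acot9 at 4 (79.8%), and Acot8 at 5. Acot11 stood at 4 in the promoter near the start of its main transcript. In a promoter near the start of a minor transcript, which held 2.71% of the gene, it stood at 3. The half-site alone was found in Acot3, Acot4 and Acot12, and in 16.3% of all promoters. Acot2 and Acot8 did not hold the half-site in this window. Acot12 gave no call in any comparison. A match is a run of letters and shows no binding.

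Other genes of acyl-CoA handling rose between the alternating diets as well. Over all genes tested, 4.31% were called higher and the median log2 fold change was 0.19. Of 17 genes of mitochondrial fatty acid import and oxidation, 12 were called higher in ketogenic-alternating livers and none lower (median log2 fold change 0.57). Acadm, the medium-chain acyl-CoA dehydrogenase, averaged 564 ± 60.2 TPM in ketogenic-alternating and 309 ± 31.5 TPM in chow-alternating livers (SD, n = 4 each; log2 fold change 0.86, limma adjusted p = 0.00329). The dehydrogenases Acads (0.63) and Acadl (0.71) and Hadhb (0.69), a subunit of the trifunctional protein, rose as well. Of 20 known PPAR alpha targets, 10 rose (median 0.72), and some of them also stand in the oxidation and peroxisomal lists. The fatty aldehyde dehydrogenase gene Aldh3a2 averaged 454 ± 40.1 TPM in ketogenic-alternating and 164 ± 26.0 TPM in chow-alternating livers (1.48, adjusted p = 0.000327), and Vnn1 (1.74) and the fatty acid translocase gene Cd36 (1.89) rose with it. Of 21 peroxisomal genes, 6 rose (median 0.42), among them Acaa1a (0.63), Decr2 (0.58), Hsd17b4 (0.68) and Crat (0.89).

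The synthetases and fatty acid transport proteins, which make the acyl-CoA that thioesterases cut, gave 4 higher and 1 lower call among 15 tested of 20 (median log2 fold change 0.34). Slc27a1 (1.02), Acsf3 (0.76), Acsm3 (0.57) and Acsf2 (0.50) rose. The lower gene was Slc27a5, the bile acid-CoA ligase of liver, at 526 ± 48.3 TPM in ketogenic-alternating and 683 ± 51.2 TPM in chow-alternating livers (log2 fold change -0.38, limma adjusted p = 0.0471), named after its value was seen. A lower call in this list was found in 1 of the 8 fits that left out 1 library, the fit without ketogenic-alternating replicate 4. Among 7 acyl-CoA binding proteins Scp2 rose (0.57), and among 14 receptors and cofactors Pparg (1.26) and Rxra (0.63) rose. Of the other thioesterases, 6 of 10 were tested. Acot6 averaged 2.10 ± 0.408 TPM in ketogenic-alternating and 0.673 ± 0.236 TPM in chow-alternating livers. It reached 1 TPM in all 4 ketogenic-alternating and in none of the chow-alternating libraries, so it entered the test only through the group where it was high, and its call is not read as a result. Acot5 stayed below 0.94 TPM and Acot10 below 0.06 TPM in every library. The counts were 3 of 17, 6 of 20 and 0 of 21 for the oxidation, PPAR alpha and peroxisomal lists in a fit over all 16 libraries, and 4, 6 and 0 after rescaling by median ratios. Without ketogenic-alternating replicate 2 they were 6, 6 and 3, and without ketogenic-alternating replicate 4 they were 12, 12 and 15.

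**Figure D4:**
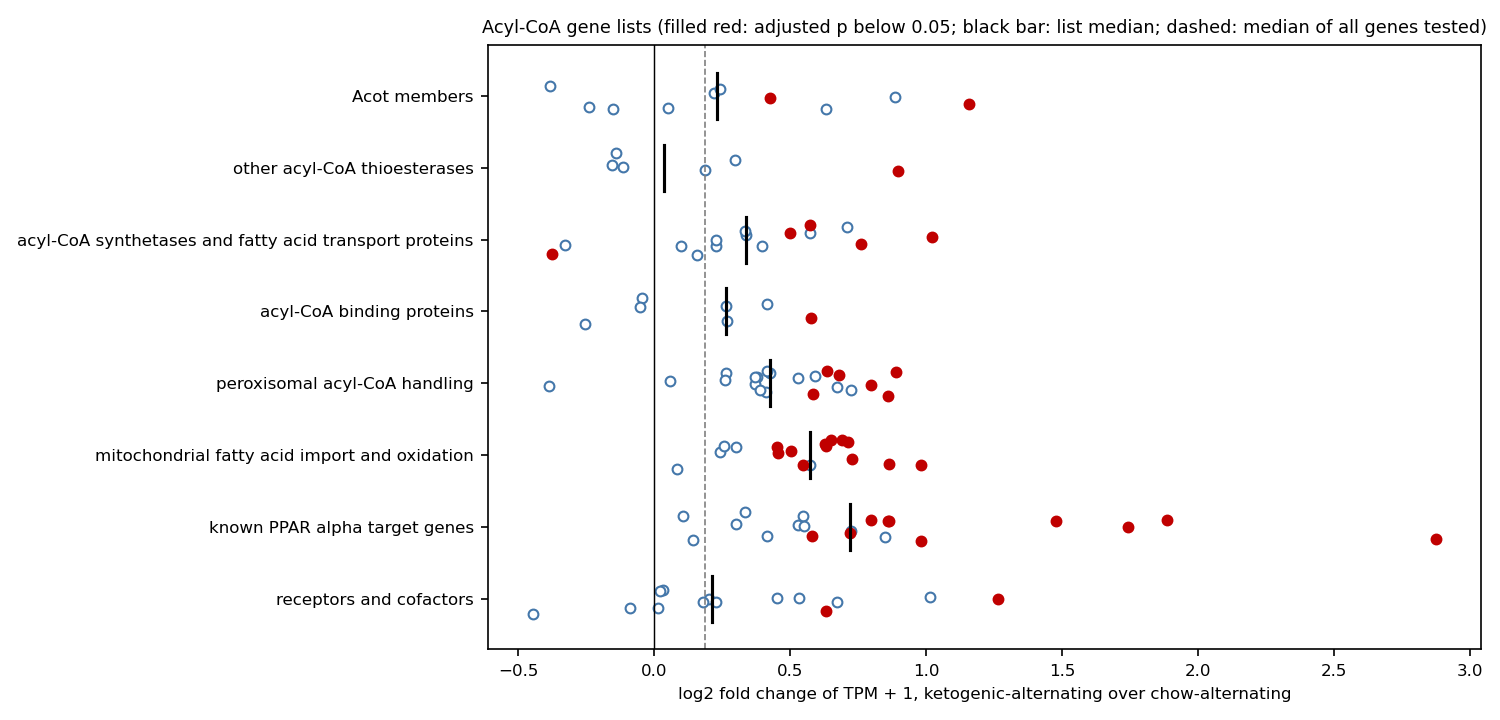
Log2 fold change in ketogenic-alternating over chow-alternating livers of the members and of 7 lists of acyl-CoA genes (points, filled where the adjusted p was below 0.05), with each list's median as a black bar and the median of all genes tested (0.19) as a dashed line. The oxidation and PPAR alpha lists have medians of 0.57 and 0.72, and the members 0.23.

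Against the constant high-fat diet, no member of the family gave a call in ketogenic-alternating livers (limma), and 0.036% of 11108 genes did. At an unadjusted p below 0.05 stood 3 of 10 members, all higher, against 10% of all genes in either direction and 9.11% as higher. These were Acot2 (22.2 ± 5.25 TPM in ketogenic-alternating and 10.7 ± 2.94 TPM in high-fat livers, log2 fold change 0.98, SE 0.222, adjusted p = 0.329), Acot8 (0.58, adjusted p = 0.486) and Acot4 (0.44, adjusted p = 0.486). Over the alternatives the adjusted p of Acot2 in this comparison ran from 0.0714 to 0.944. The Acot1 to Acot6 sum had a log2 fold change of 0.58 (adjusted p = 0.486). The members' median log2 fold change was 0.35, beside 0.21 for all genes tested, and 8 of 10 were above 0. After rescaling by median ratios, which took 0.20 off the median of all genes, Acot7 stood at -0.19 and Acot13 at -0.31.

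Against chow, no member was called in ketogenic-alternating livers either (limma), where 5% of 11091 genes were, 407 higher and 148 lower (409 and 336 after rescaling by median ratios, 358 and 296 without the 20 highest and the mitochondrial genes). The rescalings took 0.14 and 0.10 off the median of all genes. The 9 members tested left out Acot11, which missed the minimum of 1 TPM in 4 of 8 libraries. Acot2 had the only unadjusted p below 0.05, against 22.2% of all genes and 16.4% as higher, at 22.2 ± 5.25 TPM in ketogenic-alternating and 15.4 ± 2.04 TPM in chow livers (log2 fold change 0.48, SE 0.191, adjusted p = 0.176). Acot8 averaged 29.8 ± 2.72 TPM in ketogenic-alternating and 30.0 ± 3.48 TPM in chow livers, with a 95% interval of the log2 fold change of -0.31 to 0.30. Acot1 averaged 83.3 ± 34.0 TPM and 98.5 ± 32.5 TPM in the same order, with an interval of -0.95 to 0.40. The Acot1 to Acot6 sum had a log2 fold change of -0.08 (adjusted p = 0.857). The members' median was -0.0044, beside 0.15 for all genes tested.

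The acyl-CoA lists did give calls in this comparison. Over all genes tested, 5% were called in either direction and the median log2 fold change was 0.15. Of 15 synthetases and transport proteins tested, 8 rose in ketogenic-alternating livers relative to chow (median log2 fold change 0.66), led by Slc27a1 (1.11), Acsf3 (0.85) and Acsm1 (0.66). Of 17 oxidation genes 7 rose (median 0.62), among them Hadh (0.79), Acadm (0.79), Eci1 (0.69) and Acadl (0.62). Of 20 PPAR alpha targets 6 rose (median 0.34), with Cd36 (1.81), Aldh3a2 (1.35) and Vnn1 (1.12) among them, and 4 of 21 peroxisomal genes rose, among them Acaa1a (0.72), Abcd2 (1.18) and Decr2 (0.68). Scp2 rose (0.72) and Dbi, the acyl-CoA binding protein gene, fell (-0.65). With single libraries left out, a higher call among the binding proteins was found in 1 of 8 fits and a lower call in 2 of 8. Pparg (1.13) and Srebf1 (0.78) rose among the receptors and cofactors. Acot6 averaged 2.10 ± 0.408 TPM in ketogenic-alternating and 0.737 ± 0.183 TPM in chow livers, and its call is again not read as a result, since no chow library reached 1 TPM. With single libraries left out, the oxidation count ran from 0 of 17, without ketogenic-alternating replicate 2, to 10 of 17, without chow replicate 1. Without the chow libraries above 33% it was 1 of 17, and the counts of synthetases, PPAR alpha targets and peroxisomal genes were 1, 2 and 0. The resident macrophage markers summed to 79.6 to 292 TPM in ketogenic-alternating and 67.9 to 218 TPM in chow livers, with 0 of 6 called. Stellate cell markers summed to 201 to 379 TPM and 160 to 201 TPM, and sinusoidal endothelial markers to 102 to 153 TPM and 73.2 to 123 TPM, in the same order, with 0 of 6 called in each list. The adipocyte markers summed to 13.1 to 42.3 TPM in ketogenic-alternating and 0 to 0.506 TPM in chow livers. Cfd was called, but no chow library reached 1 TPM of it, so that call is not read as a result. Of 10 hepatocyte markers 2 rose and 2 fell. The part of these cells was not tested.

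In chow-alternating livers relative to chow, no member was called (limma), beside 1.16% of 10862 genes, 70 higher and 56 lower (141 and 60 after rescaling by median ratios, 78 and 106 without the 20 highest and the mitochondrial genes). Of the members, 3 of 10 had an unadjusted p below 0.05, all lower, against 12.3% of all genes and 7.45% as lower, and for the same 3 every chow-alternating library lay below every chow library, which 5.54% of all genes did. Acot1 averaged 51.7 ± 15.1 TPM in chow-alternating and 98.5 ± 32.5 TPM in chow livers (log2 fold change -0.91, SE 0.261, adjusted p = 0.154). Acot2 averaged 9.37 ± 2.25 TPM and 15.4 ± 2.04 TPM in the same order (-0.68, SE 0.179, adjusted p = 0.116). Acot8 averaged 21.9 ± 0.781 TPM in chow-alternating and 30.0 ± 3.48 TPM in chow livers (-0.43, SE 0.127, adjusted p = 0.164). Without the chow libraries above 33%, an alternative chosen after seeing the data, Acot1 passed at -1.32 (adjusted p = 0.0465, with 0.0465 to 0.354 over all alternatives). That fit kept only chow replicates 1 and 4, with the higher Acot1 values (129 and 124 TPM). It dropped chow replicates 2 and 3 (70.6 and 70.1 TPM). The Acot1 to Acot6 sum had a log2 fold change of -0.49 (adjusted p = 0.285), and the members' median was -0.10, beside -0.04 for all genes tested.

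In high-fat livers relative to chow, no member was called (limma), beside 1.06% of 10960 genes. The members at an unadjusted p below 0.05 were again Acot1, Acot2 and Acot8, all lower, 3 of 10 against 11.6% of all genes and 7.4% as lower. The same chow libraries served here and in the chow-alternating comparison. Acot1 averaged 52.0 ± 14.3 TPM in high-fat and 98.5 ± 32.5 TPM in chow livers (log2 fold change -0.89, SE 0.260, adjusted p = 0.184). Acot8 averaged 20.1 ± 5.92 TPM and 30.0 ± 3.48 TPM in the same order (-0.58, SE 0.204, adjusted p = 0.264), and it passed in a fit over all 16 libraries (adjusted p = 0.047, with 0.047 to 0.631 over all alternatives). Acot2 stood at -0.51 (SE 0.207, adjusted p = 0.358). For the Acot1 to Acot6 sum the log2 fold change was -0.67 (adjusted p = 0.184). The median of the members was -0.12, beside -0.05 for all genes tested.

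Chow-alternating and high-fat livers gave no call among the members (limma), beside 0.0459% of 10899 genes. Acot3 alone had an unadjusted p below 0.05, against 4.15% of all genes and 1.88% as higher. The 5 calls over all genes were 3 higher and 2 lower (3 and 1 after rescaling by median ratios). Acot3 had 37.7, 26.6, 35.4 and 42.2 TPM in chow-alternating livers, against 30.2, 12.6, 24.0 and 25.1 TPM in high-fat livers (log2 fold change 0.65, SE 0.244, adjusted p = 1.00). The groups overlapped at 1 library each. For Acot1 the 95% interval was -0.54 to 0.51 and for Acot8 -0.24 to 0.55. For the Acot1 to Acot6 sum the log2 fold change was 0.17 (adjusted p = 1.00). The members' median was 0.04, beside 0.02 for all genes tested. None of the 7 acyl-CoA lists held a call between these groups, between high-fat and chow livers, between chow-alternating and chow livers, or between ketogenic-alternating and high-fat livers.

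Acot12 and Acot13 stood at opposite ends of their ranges in chow replicates 1 and 3. In the library with the highest share in its 20 highest genes, chow replicate 3 (38.8%), Acot12 stood at 43.4 TPM and Acot13 at 146 TPM. In chow replicate 1 (29.0%) they stood at 101 TPM and 85.5 TPM. High-fat replicate 1 (34.3%) had the lowest Acot12 of all libraries, 41.9 TPM, and 120 TPM of Acot13. Chow replicate 2 (34.2%) had 59.1 TPM of Acot12 and 124 TPM of Acot13. In high-fat replicate 2 (33.5%) Acot12 was not low, at 80.5 TPM, with 121 TPM of Acot13. Across the 16 libraries the log2 levels of both genes had a Pearson r of -0.73, and of -0.77 once group means were taken off, as a description, since all values of a library share its scale. The part of the library make-up in these levels was not tested.

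**Figure D5:**
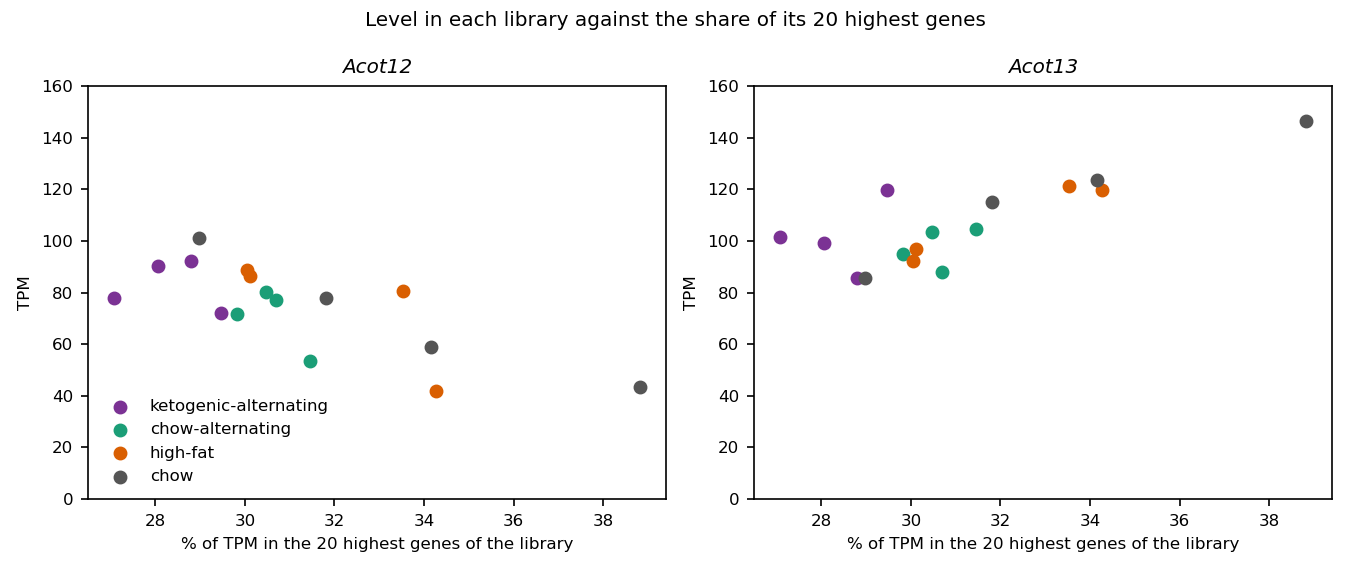
TPM of Acot12 (left panel) and Acot13 (right panel) in each of the 16 libraries against the percentage of the library's TPM held by its 20 highest genes, coloured by diet. Chow replicate 3, at 38.8%, has 43.4 TPM of Acot12 and 146 TPM of Acot13.

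The genes most like each member over the 16 libraries were named by the Pearson r of log2(TPM + 1) among 11116 genes, as a description. Acot1 was closest to Retsat (r = 0.94), a retinol saturase, then to Abhd6 and the peroxisomal isomerase gene Eci2. Itm2b (0.90) and Adgrg2 were among the genes closest to Acot2. Acot8 was closest to Nelfcd (0.88), the carnitine transporter gene Slc22a5 and Lsm1. Acot9 was closest to Atf3 (0.91), Il10rb and Glipr1. Acot12 was closest to Ankrd28 (0.97), Arih1 and Capza2, and Acot13 to Rps27l (0.90), Gnas and Gng5. The highest r of Acot3 was lower (0.76, Haao). Acot4 was closest to Bloc1s3 (0.82), Acot7 to Arpc5l (0.83) and Acot11 to Gna14 (0.85). Among the members themselves, Acot1 and Acot8 had the highest r (0.72, and 0.46 once group means were taken off).

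In the transcript table, Acot2 had a single transcript. The main transcript of Acot1, Acot7, Acot9, Acot11, Acot12 and Acot13 held 94.8% to 99.5% of the gene on average, and that of Acot4 84.5%. For Acot8 the main transcript held 73.0%, between 37.2% and 92.9% in single libraries, at 66.7 ± 6.30% in ketogenic-alternating, 80.4 ± 12.2% in chow-alternating, 78.2 ± 15.5% in high-fat and 66.5 ± 20.3% in chow livers (SD, n = 4 each). For Acot3 it held 59.3%, with single libraries anywhere from 0% to 100%, so the estimated split of this gene was not stable between libraries of a group. These shares were not tested.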

How the data were processed

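Liver RNA of 16 libraries was sequenced with 150-base paired reads. Per the series' design text and the submitters' processing notes, reads were mapped to mm10 with HISAT2, expression was calculated with RSEM 1.1.17 on Ensembl annotation, and groups were compared with edgeR 3.14.0. The design text names FPKM, but all columns of the tables deposited by the authors had 1 common sum, as TPM does, so sequencing depth is unknown. No interval from counts could be given. A gene's TPM equalled the sum of its transcripts within 9.00e-06.

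The scale of the tests was log2(TPM + 1). A gene entered a comparison when 4 or more of the 8 libraries reached 1 TPM, and was fitted with limma 3.58.1 (R 4.3.3, intensity trend, no covariates), with Benjamini-Hochberg adjustment over all genes tested and a call at 0.05. The fold change understates genes near 1 TPM. The test was run on simulated data for high-fat against chow livers only, and the outcome is not reported here. The members, lists and markers were chosen with earlier results of these data known. All members were reported in all comparisons. From each list up to 4 called genes of smallest adjusted p were named, and up to 3 genes of highest correlation with each member. A few genes that these rules pick are not reported here. Alternatives were a pseudocount of 0.1, no filter, 1 fit over 16 libraries, 2 rescalings, a replicate block, a 2-fold limit, Acot1 to Acot6 summed, each library left out, and, chosen after seeing the data, the 4 libraries above 33% in their 20 highest genes left out. Positions, coding sequences and shared windows come from GENCODE vM21, promoters from RefSeq. Of 13 thioesterase genes compared, 6 had the same start and end in the deposited annotation. The shared windows may thus differ from those of the annotation behind the deposited values.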

Additional observations from a re-analysis of the deposited data

Results flagged for a closer look

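In 3 of 40 groups of 4 values (10 members in 4 diets) a single library stood far from the other 3, by Dixon's gap test at the 95% level, which chance passes in about 1 group in 20. All 3 were high-fat libraries. Acot4 reached 34.3 TPM in high-fat replicate 4, against 22.7 to 23.4 TPM in the other high-fat libraries. Acot8 reached 28.9 TPM in the same library, against 16.5 to 18.3 TPM in the others. Acot9 reached 4.74 TPM in high-fat replicate 3, against 2.12 to 2.29 TPM in the others. The resident macrophage markers were highest in that library within the high-fat group (225 TPM, the others 108 to 178 TPM), and their part in the value of Acot9 was not tested.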

How the results depend on the processing

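The count of members called in ketogenic-alternating relative to chow-alternating livers was 2, and 1 in the fit over all 16 libraries, under both rescalings, with a 2-fold limit and with Acot1 to Acot6 summed, where Acot2 is no longer a row of its own. It ran from 1 to 3 when single libraries were left out, with 3 without ketogenic-alternating replicate 4. In high-fat relative to chow livers it was 0, and 1 in the fit over all 16 libraries. In chow-alternating relative to chow livers it was 0, and 1 without the libraries above 33%. In the other 3 comparisons it was 0 under every alternative run. The deviations of same-numbered libraries correlated above 0.1 in 4 of 24 pairs (-0.58 to 0.39). These values cannot settle whether replicate numbers pair the libraries. With the replicate block the ketogenic-alternating against chow-alternating count was 0 (Acot2 adjusted p = 0.0529, Acot8 adjusted p = 0.0815), over 181 calls in the whole table.

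Over 59 fold changes and 865 alternative values of them, no called member changed direction, and 56 values, all of members without a call, had the other sign. Whole-table calls moved most. They were 554 between the alternating groups (107 in the fit over all 16 libraries, 274 with no filter, 307 and 329 rescaled, 86 at 2-fold, 162 to 2513 with a library left out) and 555 for ketogenic-alternating against chow (351 with no filter, 257 at 2-fold, 189 without the libraries above 33%, 181 to 1620 with a library left out). For chow-alternating against chow they were 126 (3 with no filter, 201 rescaled by median ratios, 32 to 242), for chow-alternating against high-fat 5 (12 with the block, 1 without the libraries above 33%, 3 to 32), for ketogenic-alternating against high-fat 4 (16 in the fit over all 16 libraries, 1 with no filter, 2 to 22), and for high-fat against chow 116 (399 in the fit over all 16 libraries, 43 with the block, 19 without the libraries above 33%, 36 to 125). The highest of these counts came without ketogenic-alternating replicate 4 (2513) and without chow replicate 1 (1620 and 242) and high-fat replicate 3 (32, 22 and 125). The cause of these differences was not tested. Depth is unknown, so limits on Acot11 and Acot9, near 1 TPM, cannot be given.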
